A study of Mus musculus with 12 samples.

Results

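Brainstem RNA was compared between female CFW mice given morphine and female CFW mice given saline as neonates. The comparison took 6 of the 12 libraries of the series, those labelled morphine replicates 1, 2, and 3 and saline replicates 4, 5, and 6, which are all of its females, and it used every gene of the count table. CFW mice are an outbred stock, so individual mice differ in genotype. Pups received saline or 15 mg/kg morphine by subcutaneous injection 2 times a day from postnatal day (P) 1 to P14, with both treatments given within each litter, and tissue was taken on P15, 16 h after the last injection, during spontaneous withdrawal. Each library came from 1 mouse, with n = 3 mice per group. The comparison addresses which transcripts differ in the female brainstem after repeated neonatal morphine. No label gives the dam, so litter could not be modeled.

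The brainstem holds noradrenergic and serotonergic cell groups. Opioids inhibit noradrenergic neurons of the locus coeruleus through the μ opioid receptor, and these neurons are known to become overactive during withdrawal. A block of this tissue also carries its coverings, the leptomeninges, whose fibroblasts line the surface and the larger vessels and secrete collagens and small proteoglycans. The choroid plexus of the fourth ventricle, which makes cerebrospinal fluid, lies against it and can be taken along in part.

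The 6 libraries held between 27850565 and 35305619 counts. The labels give brainstem as the tissue, whereas the extraction text names spinal cords. The hindbrain gene *Tph2* (23.9 to 41.6 CPM, counts scaled to the library size) was measured in all 6 libraries, and of 8 *Hox* genes typical of the spinal cord 1 (*Hoxb9*) was high enough to be tested, with *Hoxc9* and *Hoxc10* at 0 in every library. *Xist* was between 547 and 970 CPM over the females, as their labels state. Libraries of the same group were not copies of each other. The comparison of counts between libraries gave a chi-square per degree of freedom of 46.0 for saline 4 against saline 6, and of 8.80 for saline 4 against morphine 3, so members of a group could differ more than members of opposite groups.

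Of 18109 genes tested, 328 (1.81%) passed both thresholds of the study (*p* below 0.05 before adjustment, and a log2 fold change beyond 0.26 in either direction) and are called DE genes here. There were 168 (0.928%) higher and 160 (0.884%) lower in morphine females. After Benjamini-Hochberg adjustment over all genes, edgeR's quasi-likelihood test left 0 genes (0%) below an adjusted *p* of 0.05, against 343 before adjustment. Both exactTest and DESeq2 left 3, *Nup35*, *Serpind1*, and *Gm13688*. Morphine and saline females had separate ranges for 1052 genes (5.81%), and 540 (2.98%) were lower in morphine females without overlap. With 3 mice per group, an exact permutation test of a single gene cannot go below *p* = 0.1. Separate ranges thus arise with probability 0.1 in a gene that does not differ, and the observed 5.81% was lower. The 343 genes with an unadjusted *p* below 0.05 were 1.894% of those tested, also below the share of 0.05 expected without any difference. Neither count was above the number expected by chance. The plot of *p* against fold change shows *Nup35* and *Serpind1* apart from the other genes. Apart from *Nup35*, each DE gene named below had an adjusted *p* of 1.00 in edgeR's quasi-likelihood test.

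**Figure D1:**
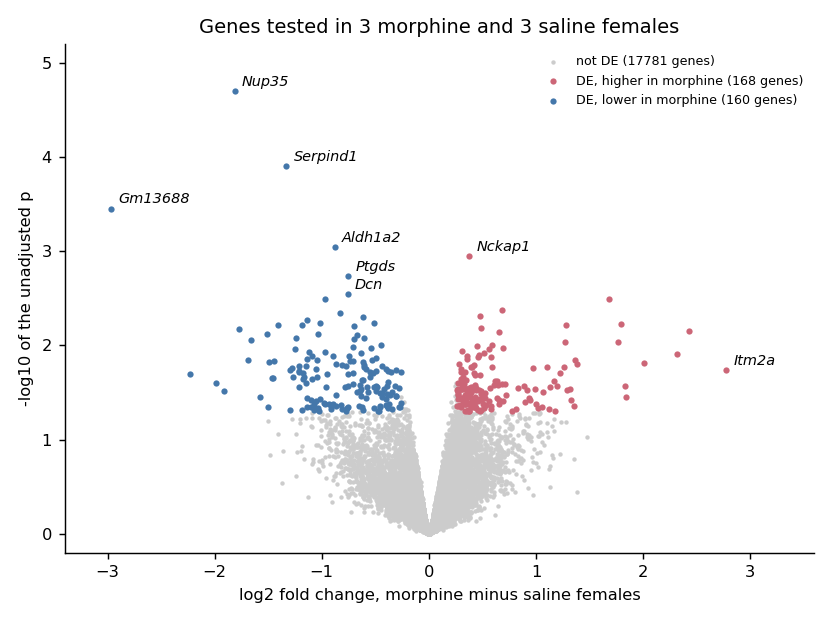
Each point is 1 of 18109 genes, with the log2 fold change of morphine minus saline females on the x axis and -log10 of the unadjusted p on the y axis. The 168 DE genes higher in morphine are red and the 160 lower are blue, and *Nup35* has the smallest p.

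Genes of meningeal fibroblasts were lower in morphine females. Of 21 markers tested, 12 were DE and lower and 0 were DE and higher, 20 had a negative fold change, and 11 had levels that did not overlap between the groups. Their median log2 fold change was -0.70, against -0.01 over all genes tested. Of all 18109 genes, 0.884% were DE and lower, 9384 had a negative fold change, and 2.98% were lower without overlap. The list was drawn up with earlier results of these data known, and it includes *Ccn3*, entered under its current symbol after the table was read. Without *Ccn3* the numbers are 11 of 20 DE and lower. Summed over the list, the level was 154.8, 149.7, and 225.5 CPM in saline 4, 5, and 6 and 104.7, 136.2, and 85.9 CPM in morphine 1, 2, and 3. Every morphine female was below every saline female, and saline 6 stood highest. In bulk tissue, fewer cells of a type and less RNA per cell cannot be told apart, nor can either be told apart from less of the meninges in the dissected block.

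Secreted proteoglycans of this list included *Dcn*, *Fmod*, and *Lum*. *Dcn* encodes decorin, a small proteoglycan that binds collagen fibrils. It was at 37.2, 37.2, and 50.9 CPM in saline 4, 5, and 6 and at 22.7, 31.99, and 19.2 CPM in morphine 1, 2, and 3. All 3 morphine females lay below all saline females, with a log2 fold change of -0.76 (SE 0.19). *Fmod*, for the related fibromodulin, was at 15.8, 17.1, and 22.8 CPM in saline and 12.0, 14.2, and 10.2 CPM in morphine females. The groups again did not overlap, and the log2 fold change was -0.61 (SE 0.17). *Lum*, for lumican, did not pass, at -0.47 (SE 0.24), and morphine 2, at 7.15 CPM, lay within the saline range of 6.33 to 7.40 CPM.

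The other DE members of the list have varied roles. *Aldh1a2* encodes a retinaldehyde dehydrogenase that makes retinoic acid. It was at 12.5, 9.99, and 16.5 CPM in saline and 6.73, 7.81, and 6.64 CPM in morphine females, without overlap, and the log2 fold change was -0.88 (SE 0.19). *Crabp2*, which carries retinoic acid in the cell, fell by 0.78 on the log2 scale (SE 0.27). Both also belong to a list of 17 tested retinoic acid genes, of which 3 were DE and lower, against 0.884% of all genes. In that list 7 had a positive fold change, and the median was -0.03. *Slc13a4*, a sulfate transporter, was at 7.89, 8.80, and 17.2 CPM in saline and 5.05, 7.26, and 4.15 CPM in morphine females. Saline 6 was far above the other saline females, but the groups did not overlap (log2 fold change -1.04, SE 0.31). *Slc6a13*, a GABA transporter of the leptomeninges, fell by 0.75 (SE 0.25). *Ccn3*, for a secreted matrix-associated protein, was at 9.17 ± 2.09 CPM (SD, n = 3) in saline and 5.64 ± 0.889 CPM (SD, n = 3) in morphine females, a log2 fold change of -0.70 (SE 0.20). The transcription factor genes *Foxc2* and *Osr1*, and *Slc6a12*, *Ranbp3l*, and *Cdh1*, were the other DE members, with log2 fold changes from -1.25 for *Foxc2* to -0.65 for *Slc6a12*. *Cdh1*, for E-cadherin, overlapped between the groups, with morphine 2 at 3.66 CPM and saline 4 at 2.94 CPM. *Bnc2*, at 0.24 (SE 0.36), was the member with a positive fold change. *Slc13a4*, *Slc6a13*, *Foxc2*, *Osr1*, *Slc6a12*, and *Ranbp3l* are named as the remaining DE genes of the list, after their values were seen.

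**Figure D2:**
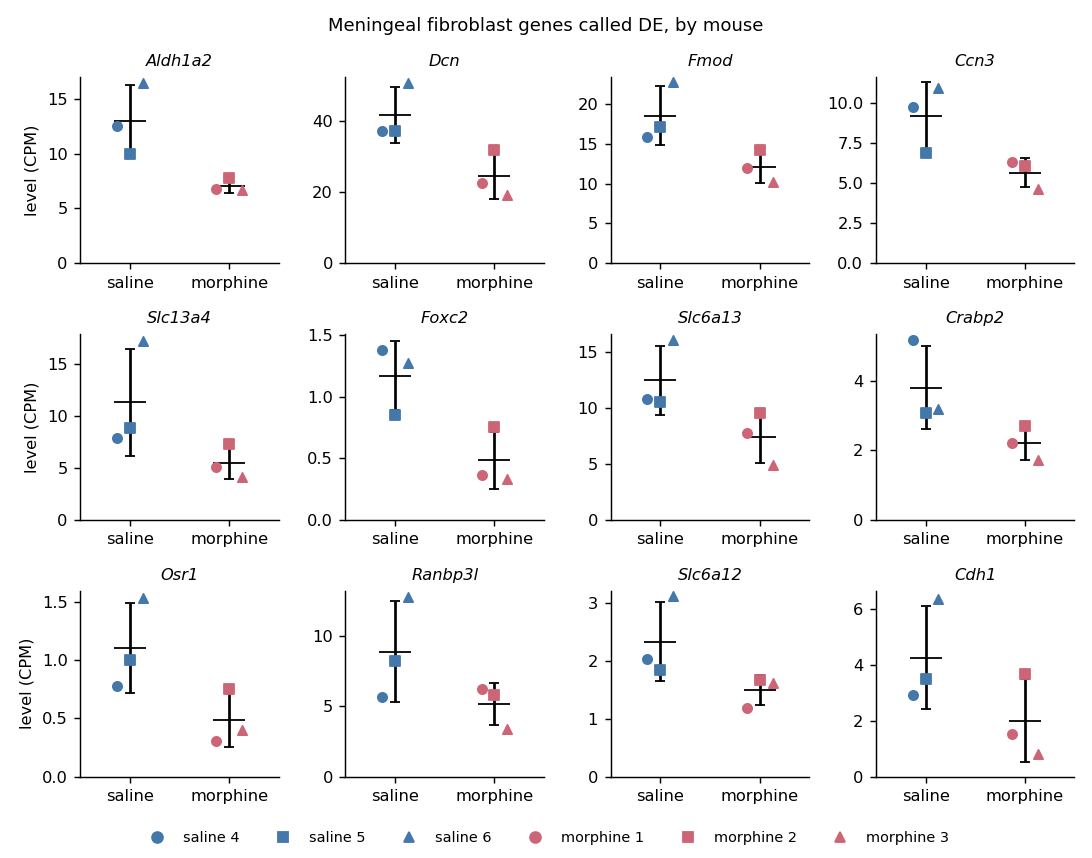
Level in CPM (y axis, from 0) of the 12 DE meningeal fibroblast genes in each saline (blue) and morphine (red) female; symbols mark the mice, the bar is the mean and the whiskers are 1 SD (n = 3). Saline 6 is the highest saline female in most panels and morphine 3 the lowest morphine female in many, and *Cdh1* and *Ranbp3l* overlap between groups.

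The promoters of a pair of these genes are shown because their levels moved together while their base composition differed. RefSeq promoters (GRCm38.p6) were found for 6 of the 12 DE members. The sequences run 5′ to 3′ on the gene's strand and end at the base before the start. *Aldh1a2* is on the plus strand at chr9:71215589-71215788 and *Slc13a4* is on the minus strand at chr6:35308127-35308326, and capitals mark CCAAT or its reverse complement ATTGG.
Aldh1a2: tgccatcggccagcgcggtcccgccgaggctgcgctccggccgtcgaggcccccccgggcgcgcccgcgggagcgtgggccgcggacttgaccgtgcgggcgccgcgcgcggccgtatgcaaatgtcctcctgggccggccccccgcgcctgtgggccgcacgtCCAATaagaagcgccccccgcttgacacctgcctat
Slc13a4: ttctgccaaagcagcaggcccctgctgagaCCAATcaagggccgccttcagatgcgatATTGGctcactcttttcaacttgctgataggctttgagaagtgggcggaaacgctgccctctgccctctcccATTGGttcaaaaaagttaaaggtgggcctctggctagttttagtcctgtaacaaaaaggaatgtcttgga
The *Aldh1a2* stretch was 77.0% G and C and that of *Slc13a4* 50.0%. Of 3 motifs searched on both strands over the whole promoter entry, the forkhead core TGTTTAC was in 0 of the 6 promoters, against 3.65% of all promoters. The GC box GGGCGG was in 2 of 6, against 35.7%. The CCAAT box, added after the sequences had been read, was in 3 of 6, against 37.4%. These matches are descriptions of letters and not of binding.

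Further genes were lower without overlap. *Serpind1*, for heparin cofactor II, was at 8.06, 6.59, and 10.5 CPM in saline and 2.81, 4.06, and 3.08 CPM in morphine females. Every morphine female was below every saline female, and the log2 fold change was -1.33 (SE 0.22). *Ptgds*, for the prostaglandin D2 synthase secreted into cerebrospinal fluid, was at 309, 228, and 271 CPM in saline and 153, 205, and 123 CPM in morphine females, a log2 fold change of -0.75 (SE 0.18). Lower levels without overlap were also measured for *Itih2* (-1.14), *Prg4* (-1.02), *Prelp* (-0.51), and *Esm1* (-1.19), which encode a hyaluronan-binding inhibitor chain, lubricin, a matrix proteoglycan, and an endothelial proteoglycan, and for the retinol carrier *Rbp4* (-0.71, SE 0.23). The histone gene *Hist1h3d* (-0.83) and *D630039A03Rik* (-0.97) were lower without overlap as well, and of 14 tested clustered histone genes, whose near-identical copies make their levels uncertain, 2 were DE and lower. Over all genes tested, 0.884% were DE and lower, 0.928% were DE and higher, and 5.81% had no overlap. Of 35 collagen chains, 3 were DE and lower (*Col3a1*, *Col4a5*, and *Col6a1*) and 1 was DE and higher (*Col6a2*). The median of the chains was -0.15, with 0 members without overlap. The number DE and lower was 8 without saline 4 or without morphine 2, 2 without saline 5, and 0 without saline 6, morphine 1, or morphine 3. With offsets for GC content and exon length, 5 chains were DE and lower and 0 higher. *Col3a1* was at 37.7, 54.6, and 70.7 CPM in saline and 18.5, 49.7, and 20.9 CPM in morphine females, with morphine 2 inside the saline range.

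Choroid plexus and neutrophil markers moved the same way, but their values depended on single libraries. All 14 choroid plexus markers had a negative fold change (median -0.75), and 1 was DE (*F5*). *Kl*, for the Klotho protein, was at 6.27, 6.59, and 22.9 CPM in saline and 8.17, 7.06, and 7.45 CPM in morphine females. Saline 6 alone was high, and without it the median of the list was 0.70 and 12 of the 14 were higher in morphine females. The meningeal genes had a median of -0.44 without saline 6, with 8 DE and lower, and of -0.57 without morphine 3, with 7 DE and lower. Among 5 tested neutrophil genes, 3 were DE and lower, against 0.884% of all genes. *S100a8*, for a calcium-binding protein of neutrophil granules and cytosol, was at 2.07, 4.10, and 1.36 CPM in saline and 0.398, 1.33, and 1.03 CPM in morphine females. Saline 5 was highest, and without saline 5, or without morphine 1, 0 of the 5 were DE. Mature oligodendrocyte, astrocyte, microglial, endothelial, and neuronal markers had medians between -0.05 and 0.09, with 2 DE members in all, *Agt* and *Itm2a*. *Itm2a* was at 32.2 CPM in morphine 1 and between 1.65 and 1.93 CPM in the other 5 females. Its log2 fold change of 2.78 (SE 0.98) in females therefore rested on 1 mouse. Among the males of the series, the library labelled morphine male 6 was at 24.0 CPM and the others were between 1.28 and 2.33 CPM.

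*Nup35*, for a nucleoporin of the nuclear pore, had the smallest *p* of all genes. It was at 5.81, 4.25, and 5.58 CPM in saline and 1.65, 1.10, and 1.72 CPM in morphine females. The groups were far apart, with a log2 fold change of -1.81 (SE 0.24, adjusted *p* = 0.361 in edgeR's quasi-likelihood test). Of 9 other genes tested within 1 Mb of its start, 4 were DE, against 1.81% of all genes. The window was placed around the gene with the smallest *p*, and neighboring genes in outbred mice may not vary independently. Whether this share exceeds that of other windows was not tested. The pseudogene *Gm13688*, 14.5 kb before it, was at 1.29, 1.09, and 0.925 CPM in saline and 0.275, 0.0288, and 0.110 CPM in morphine females. *Nckap1*, 117 kb before it, encodes a subunit of the actin-regulating WAVE complex and rose, from 378, 394, and 433 CPM to 526, 514, and 522 CPM (log2 fold change 0.38, SE 0.08). *Ppp1r1c*, a phosphatase inhibitor gene, was also higher without overlap (0.69, SE 0.22), and the pseudogene *Gm4735* was higher with overlap. *Dusp19*, whose annotated start lies 0.2 kb before that of *Nup35*, was not DE (-0.15, SE 0.14).

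Genes higher in morphine females had varied functions. *Fabp7*, for the fatty acid-binding protein of astrocytes and radial glia, was at 115 ± 7.71 CPM (SD, n = 3) in saline and 142 ± 13.0 CPM (SD, n = 3) in morphine females (0.30, SE 0.10). *Map3k11*, *Gpaa1*, *Sars2*, *Hgh1*, and *Hddc2* were higher without overlap, with log2 fold changes of 0.45 to 0.59. *Gm14326* (0.47) and *Gm4353* (0.66) were also higher without overlap. The calls in this direction moved with base composition. GC content was that of each gene's longest transcript. Of the 168 DE genes higher in morphine females, 113 were in the highest of 4 equal bins of GC content (53.95% to 78.34%). In that bin lay 24 of the 160 lower genes. The median log2 fold change of that bin was 0.11, against -0.05 in the lowest bin. With offsets for GC content and exon length the DE genes were 97 higher and 240 lower, and the share higher was 28.8% against 51.2%. Scaled by total counts it was 60.5%. With the offsets, *Map3k11* was at 0.32, *Gpaa1* at 0.29, *Sars2* at 0.40, *Hgh1* at 0.40, *Hddc2* at 0.49, *Fabp7* at 0.31, *Gm14326* at 0.50, and *Gm4353* at 0.67. Each of these 8 genes was DE in that fit, whereas *Rplp1* (0.35), *Rpl36* (0.54), *Col6a2* (0.57), *Agt* (0.24), and *Magel2* (0.27) were not.

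**Figure D3:**
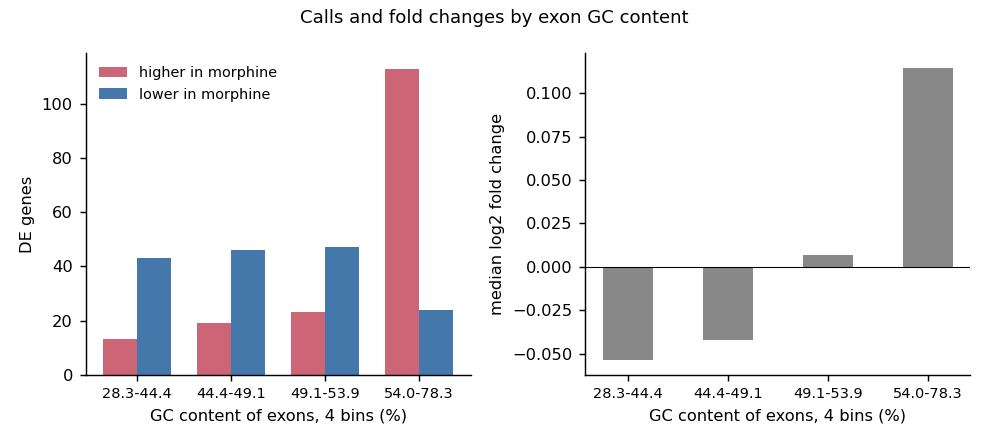
Left, number of DE genes (y axis, from 0) higher (red) and lower (blue) in morphine females in 4 equal bins of GC content (x axis, %). GC content is that of the exons of each gene's longest transcript. Right, median log2 fold change of all genes of each bin. The highest bin holds 113 of the 168 higher genes.

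Nuclear-encoded genes of ribosomes and of oxidative phosphorylation were mostly on the higher side, by small amounts and with groups that overlapped. Of 79 cytosolic ribosomal protein genes, 76 had a positive fold change (median 0.21) and 3 were DE, *Rplp2*, *Rplp1*, and *Rpl36*. Of 36 complex I subunits 33 were positive (median 0.18) and 1 was DE (*Ndufs7*), and of 40 subunits of complexes II to V 37 were positive (median 0.16) and 4 were DE. In these 3 lists 0 members had levels that did not overlap, against 5.81% of all genes tested. Of all 18109 genes, 8719 had a positive fold change and 0.928% were DE and higher. *Rplp1*, of the ribosomal stalk, was at 34.5, 23.7, and 18.9 CPM in saline and 46.2, 28.1, and 37.1 CPM in morphine females. Saline 4 was above morphine 2, and saline 6 was lowest. Without saline 4 the number of DE ribosomal protein genes was 42, without morphine 2 it was 29, and without any 1 of the other 4 libraries it was 0. The 7 tested transcripts of the mitochondrial genome had a median of -0.01, with 0 positive. The summed level of 12 abundant nuclear long noncoding RNAs was 5078, 8967, and 9812 CPM in saline 4, 5, and 6 and 7182, 9455, and 5277 CPM in morphine 1, 2, and 3. For the ribosomal protein genes it was 7889, 6745, and 5762 CPM in saline and 8039, 6424, and 8637 CPM in morphine females. The libraries with the highest noncoding RNA sums had the lowest ribosomal sums, and the part of this in the ribosomal difference was not tested. Reads of ribosomal protein genes can be shared with processed pseudogenes, which leaves their levels uncertain.

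**Figure D4:**
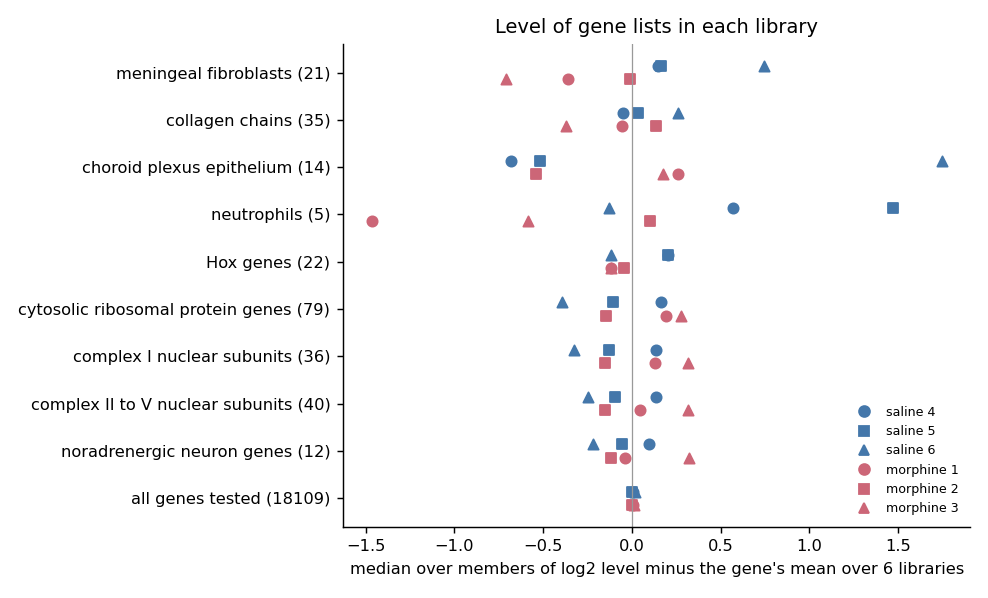
For each list (y axis, number of genes tested in parentheses), the median over members of the log2 level minus the gene's mean over the 6 libraries (x axis) in each saline (blue) and morphine (red) female. Meningeal genes separate the groups, ribosomal and respiratory chain genes do not, and saline 6 stands apart for choroid plexus genes.

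Of all genes tested 1.81% were DE (0.928% higher, 0.884% lower). A count of 0 or 1 DE members in the lists below is therefore not read as a result about the list. Of 7 opioid receptor and peptide genes tested, 1 was DE, *Pnoc*, for the precursor of nociceptin. It was at 5.99, 5.25, and 3.87 CPM in saline and 7.89, 5.73, and 7.63 CPM in morphine females, with morphine 2 below saline 4 (log2 fold change 0.49, SE 0.20). *Oprm1*, for the μ opioid receptor, was at 3.58 ± 1.21 CPM (SD, n = 3) in saline and 3.35 ± 1.03 CPM (SD, n = 3) in morphine females, and its difference of -0.09 (SE 0.31) was within the spread of each group. *Oprd1* and *Oprk1*, for the δ and κ receptors, were at -0.17 (SE 0.13) and -0.02 (SE 0.15), and the enkephalin precursor *Penk* was at 0.05 (SE 0.15). Of 12 noradrenergic neuron genes 10 had a positive fold change (median 0.14) and 0 were DE. *Slc6a2*, for the norepinephrine transporter, was at 3.97, 3.89, and 3.59 CPM in saline and 4.59, 2.62, and 7.37 CPM in morphine females. The morphine females lay on both sides of the saline females, and the difference did not pass (log2 fold change 0.34, SE 0.31). Without morphine 2 it passed, at 0.65, and without morphine 3 the median of the noradrenergic list was -0.02. Serotonergic genes, adrenergic receptors, cyclic AMP pathway genes, inhibitory G protein and RGS genes, ionotropic glutamate receptors, and GABA-A and glycine receptors each had 0 DE members, with medians between -0.04 and 0.07. In the inhibitory G protein and RGS list 5 of 32 genes had no overlap, 2 higher and 3 lower, against 5.81% of all genes. Each of the other lists in that sentence had 0 or 1 such members. Among 29 immediate early genes *Zfp36*, for an mRNA decay factor, was DE and lower (-0.43, SE 0.18), and *Fos* was at 0.02 (SE 0.15). In this list 4 genes were lower without overlap, against 2.98% of all genes, and 0 were higher without overlap. With 1 library left out, *Pnoc* and *Zfp36* each stayed DE in 2 of 6 fits.

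Of 22 *Hox* genes, which set position along the hindbrain and cord, 17 had a negative fold change (median -0.26) and 2 were DE, *Hoxc6* and *Hoxb7*, against 1.81% of all genes. The number DE and lower was 9 without saline 6, 1 without saline 4, morphine 1, or morphine 2, and 0 without saline 5, and it was 7 with offsets for GC content and exon length. *Hoxb7* was at 5.01, 6.62, and 3.93 CPM in saline and 3.79, 3.75, and 3.71 CPM in morphine females, with saline 6 close to the morphine females. Of the *Hox* genes typical of the spinal cord, the tested *Hoxb9* was at -0.45. The sum over those genes was 1.52 CPM in saline 5 and 0.636 to 0.826 CPM in the other females. The amount of caudal tissue in each block was not measured, and its part in these levels was not tested. *Igf1*, for insulin-like growth factor 1, was lower with overlap (-0.38, SE 0.17), the metallothionein gene *Mt1* was higher with overlap (0.41, SE 0.17), and of 23 tested imprinted genes *H19* was lower and *Magel2* higher, both without overlap.

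The males of the series, with other mice in both groups, were compared in the same way. Of 18166 genes tested in males, 543 (2.99%) were DE. Of the 164 female DE genes on the higher side that were tested in males, 24 (14.6%) had the same direction, against 37.2% of all genes, and of the 152 on the lower side 71 (46.7%) did, against 62.8%. The library labelled morphine male 6 lay between the sexes in sex-linked genes. Its *Xist* was at 380 CPM, against 0.398 to 2.71 CPM in the other males and 547 to 970 CPM in the females. The Y-linked gene *Ddx3y* was at 12.8 CPM, against 118 to 199 CPM in the other males and 0.0576 to 0.729 CPM in the females. *Eif2s3y*, *Kdm5d*, and *Uty* also lay between. Without this library the shares were 13.9% and 36.1%. The male median over every tested gene was -0.06, and 0.06 when libraries were scaled by total counts. With that scaling the shares were 24.4%, against 61.5% of all genes, and 29.6%, against 38.5%. The meningeal list had a median of -0.03 in males with 0 of 21 DE, and of 0.09 with total counts and 0.07 without the library labelled morphine male 6. The difference between the sexes was tested by the interaction of treatment and sex, which passed 0.05 before adjustment for 559 of 19027 genes (2.94%). After adjustment it passed for 0 (0%) with the quasi-likelihood test of edgeR, and the smallest adjusted *p* was 0.985. Of the meningeal genes 5 of 21 had an unadjusted interaction *p* under 0.05. *Nup35* was 1.09 higher on the log2 scale in morphine than in saline males (SE 0.60), and *Dcn* was at -0.26. *Nup35* was at 0.864, 0.875, and 3.31 CPM in saline males 1, 2, and 3. It was at 5.32, 2.62, and 2.83 CPM in the libraries labelled morphine male 4, 5, and 6. Its neighbors *Gm13688*, *Nckap1*, and *Ppp1r1c* were at 0.82 (SE 0.70), -0.26 (SE 0.19), and -0.18 (SE 0.41) in males. The *Hox* list was lower in males too, with a negative fold change in 19 of 22 and a median of -0.24 (-0.11 with total counts). *Hoxc6* and *S100a8* were DE and lower in males as in females, at -0.67 and -1.20 in males. Of the female DE genes on the higher side, 3 were DE the same way in males and 3 the other way, and these numbers were equal on the lower side. Ribosomal protein genes had a median of -0.37 in males, and of -0.24 with total counts. *Rplp1* was at 141 and 157 CPM in saline males 1 and 2, at 15.3 CPM in saline male 3, and at 34.1, 27.2, and 50.9 CPM in the libraries labelled morphine male 4, 5, and 6, so that saline males 1 and 2 stood apart from the other males. *Map3k11* was at 24.0 and 30.1 CPM in saline males 1 and 2, and at 4.14 CPM in saline male 3. It was at 7.52, 8.52, and 12.0 CPM in the libraries labelled morphine male 4, 5, and 6. *Gpaa1* and *Sars2* split the same way, whereas *Nckap1* and *Fabp7* did not. The part of saline males 1 and 2 in the shares with the same direction was not tested.

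**Figure D5:**
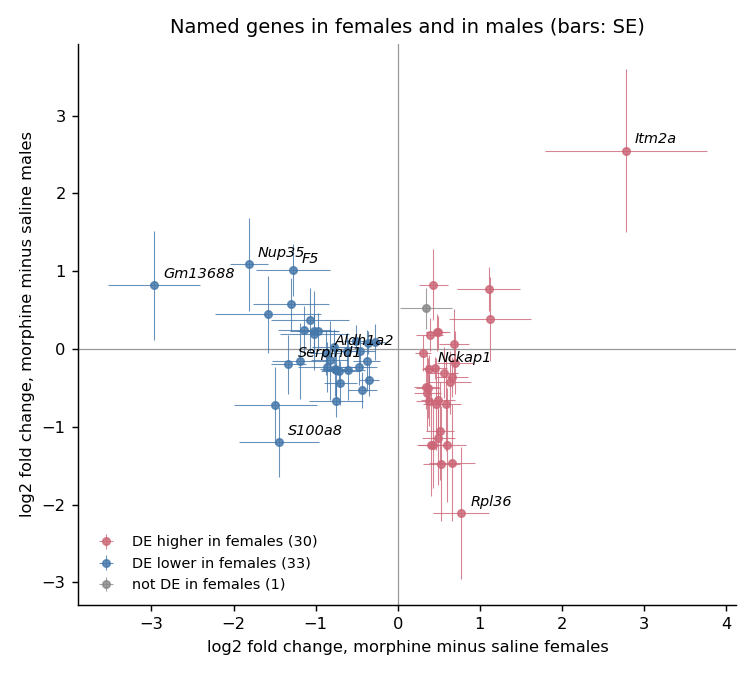
Log2 fold change of morphine minus saline in females (x axis) and in males (y axis) for the 64 named genes, with SE bars, colored by their call in females. Of the 30 named genes higher in females 22 were lower in morphine males, and of the 33 lower in females 19 were lower in morphine males.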

How the data were processed

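The deposited table holds raw counts per gene. The authors made these counts from single-end 100 bp reads by trimming (Trimmomatic), alignment to the mm10 genome (STAR), and counting over Ensembl exons (featureCounts). Versions and the strand setting are not given in the sources used here, so overlapping and antisense genes are uncertain.

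The 6 female libraries were analyzed with edgeR 4.0.16 in R 4.3.3 (filterByExpr, TMM, quasi-likelihood test, treatment as the only term). CPM used TMM-scaled library sizes. DE genes had *p* below 0.05 and a log2 fold change beyond 0.26 either way. *P*-values measure the spread between these mice. All 55418 symbols were found in GENCODE M21 (GRCm38), which gave coordinates, length, and GC content. GC content was taken from each gene's longest transcript, and exon length from the union of its exons. Alternatives included exactTest, DESeq2 1.42.0, other scalings and filters, loess offsets (span 0.5), and leaving out each library. The code was tested on simulated data, where 4.75% of 17635 unchanged genes were called DE and 12 had an adjusted *p* under 0.05. With a true log2 fold change of 0.5, 48 of 70 genes were DE the right way and 10 passed adjustment. With a true change of 1 these numbers were 59 and 48 of 61, and with 2 they were 69 and 67 of 69. The simulated counts were drawn for each gene independently, without shifts shared by the genes of a library. In the 6 female libraries 1.81% of genes were DE. The simulated rates thus check the code and do not give the error or detection rates of the present data.

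The members and lists were chosen with earlier results of these data known. Named genes were, among DE genes without overlap and with a mean of at least 1 CPM, the 12 higher and 12 lower with the smallest *p*; genes the study names for females; genes with an adjusted *p* under 0.05 in any of 3 tests; and up to 4 DE members and 3 defining members per list. Other names were chosen after their values were seen. Some genes that the rule picks are not reported here. Of the older symbols in the lists, *Cyr61* and *Nov* were replaced by *Ccn1* and *Ccn3* after the table was read.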

Additional observations from a re-analysis of the deposited data

How the results depend on the processing

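The number of DE genes was 328. It was 1094 without a filter on low counts and 218 when the contrast came from the fit of all 12 libraries, and it lay between 208 (without morphine 1) and 1482 (without saline 4) when 1 library was left out, with 690 without morphine 2. Genes with an adjusted *p* under 0.05 numbered 0 in edgeR's quasi-likelihood test, 3 with exactTest, 3 with the DESeq2 Wald test, and 77 without a filter, and between 0 and 2 when 1 library was left out. The adjusted *p* of *Nup35* lay between 5.99e-09 without a filter and 1.00 with the fit of 12 libraries. With 1 library left out it was 0.319 or higher, and it was 0.778 without saline 5 and 0.9998 without morphine 1. The log2 fold change of *Nup35* stayed between -1.93 and -1.63 in those fits. Of the 316 female DE genes tested in males, the share with the same direction was 30.06%, and it was 24.69% without the library labelled morphine male 6. Meningeal fibroblast genes had a negative median under all 14 alternatives, with between 7 (without morphine 3) and 16 (no filter) DE and lower. The cause of these shifts was not tested. No paired analysis was possible because the morphine and saline females share no replicate numbers and no label gives the dam. Both treatments were given within each litter, so any pairing of females by litter was left out of the tests.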
